A study of Mus musculus with 16 samples.

Results

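The genes of oxidative phosphorylation, the respiratory chain and ATP synthase of the inner mitochondrial membrane, were followed across resting and endotoxin-treated macrophages of 2 lipin-1 genotypes. A probe was a member when its gene name in the scanner files began with Nduf, Uqcr or Atp5, was Sdha, Sdhb, Sdhc, Sdhd or Cycs, or began with Cox and a digit of 4 to 8. This rule took 116 of 41174 probes, standing for 83 genes, and 81 of these genes were among the 17466 features tested. Of the 83 genes, 80 encode a subunit or cytochrome c: 7 core and 28 accessory subunits of complex I, 4 of complex II, 7 of complex III, cytochrome c, 18 of complex IV and 15 of complex V. The other 3 encode no subunit: Ndufaf1, an assembly factor of complex I, Atp5s, whose current symbol is Dmac2l, and Cox4nb, whose current symbol is Emc8, a subunit of an insertion complex of the endoplasmic reticulum. The study measured RNA of adherent peritoneal cells from male mice on 16 one-colour arrays, 4 per group. The groups were fld cells with lipopolysaccharide (LPS, the bacterial agonist of TLR4) at 100 ng/ml for 5 h, fld cells left untreated, control cells with the same LPS, and control cells left untreated. All mice were of the BALB/cByJ-Lpin1fld/J strain. Those called fld carried fatty liver dystrophy, a mutation of the lipin-1 gene Lpin1 present in every cell of the body, and the controls were heterozygotes, so they carried 1 mutant allele too. Macrophages were chosen by adherence alone, and treatment was in medium without serum.

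Electrons from NADH enter the chain at complex I and electrons from succinate at complex II, pass through ubiquinone to complex III and over cytochrome c to complex IV, which reduces oxygen. Complexes I, III and IV pump protons, and complex V, the ATP synthase, uses the gradient to make ATP. A few subunits of complexes I, III, IV and V are encoded in mitochondrial DNA, and the rest, which are the genes described here, are encoded in the nucleus. Macrophages activated through TLR4 are known for a shift of ATP production towards glycolysis, in which succinate oxidation at complex II and reverse electron flow at complex I produce signalling oxidants.

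Levels are log2 of the authors' processed intensity minus the log2 of the array's 75th percentile, so a level of 0 is the 75th percentile and 1 unit is a doubling of signal. Array 75th percentiles lay between 189.2 and 627 intensity units, and between 58.7% and 65.4% of spots were well above background. Replicates of a group correlated at r of 0.961 to 0.993. Each group sat on a slide of its own, so that an effect of the slide and one of the group cannot be told apart. The targeted gene went against a label on both arrays numbered 4 of the group labelled fld: for 3 of the 4 Lpin1 probes those arrays lay within or above the control range while the other fld arrays lay below it, for example -2.95 on array 4 against -5.63 to -7.15 on arrays 1 to 3 with LPS. Results are therefore given for cells labelled fld, and for the calls of members also without both arrays. Lists and genes outside the members are given with all arrays only. Of the macrophage markers, Cd14 rose with LPS by 1.06 in fld and 1.31 in control cells and Csf1r fell by 2.43 and 1.71. Of 8 macrophage markers 1 rose and 4 fell with LPS in fld cells and 1 rose and 2 fell in control cells. Of 5 B cell markers 2 fell in each genotype, and their summed linear level was 59.1 to 84.2 with LPS against 90.7 to 127.6 untreated in fld cells and 78.6 to 87.5 against 86.0 to 153.7 in control cells. The summed linear level of 5 neutrophil markers was 18.9 to 26.6 with LPS against 1.07 to 1.51 untreated in fld cells, and 8.96 to 15.8 against 1.12 to 2.18 in control cells. Of these 5, S100a8 gave most of the sum, while Ltf and Ngp were above background on only 2 and 1 of the arrays. Mesothelial or fibroblast markers, 7 on the array, separated the genotypes. Their summed linear level was 1.46 to 2.57 in fld against 0.51 to 1.06 in control cells with LPS. Untreated, it was 1.28 to 1.41 against 0.67 to 1.21. Of the 5 tested, 2 were called higher in fld cells with LPS and 0 without. The part of such other cells in the results, those between genotypes included, was not tested. In bulk RNA fewer cells of a type and less RNA per cell cannot be told apart.

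Oxidative phosphorylation genes were well detected. All 81 tested members were well above background on all 16 arrays and none was saturated. The 2 members not tested, Cox8b and Cox8c, are tissue-restricted isoforms of subunit 8: Cox8b was well above background on 0 arrays and Cox8c on 1 control array with LPS and 1 untreated control array. The spread between replicates was small in 3 groups, with a median SD over members of 0.13 in fld with LPS, 0.096 in fld untreated and 0.099 in control with LPS, but 0.20 in untreated control. There the mean of the 25 accessory complex I genes measured on all arrays was 3.61, 3.43, 3.47 and 3.15 on arrays 1 to 4, against 3.26, 3.27, 3.43 and 3.34 in control with LPS. Array 1 of the untreated control group was thus the highest and array 4 the lowest of all 16 for these genes, and complexes III, IV and V showed the same order of these 2 arrays.

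**Figure D1:**
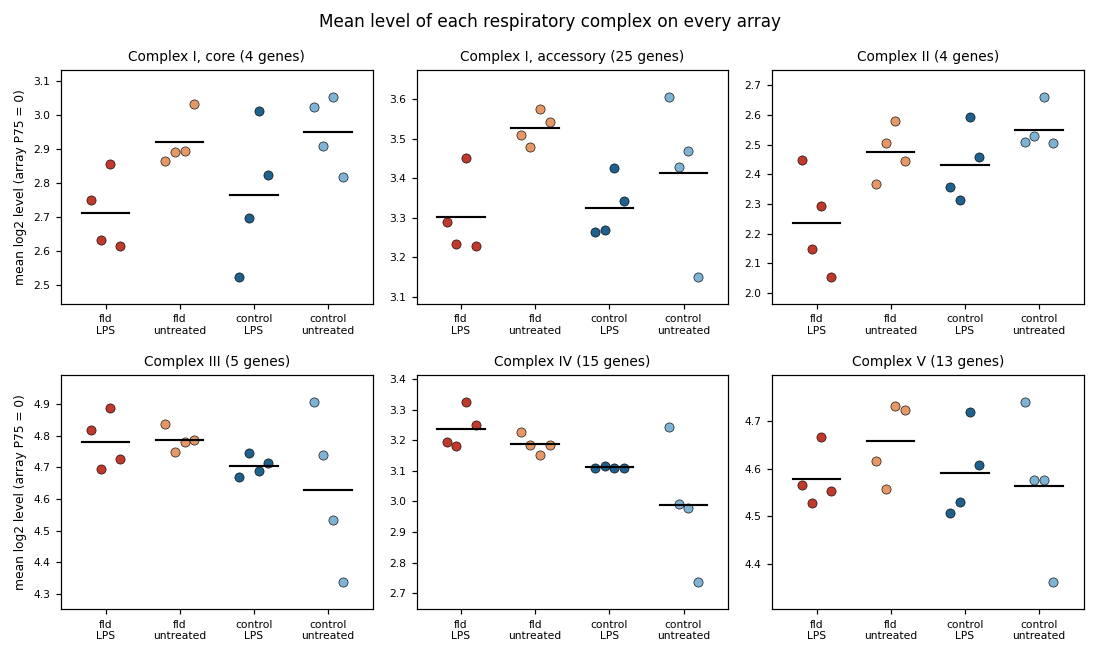
Mean log2 level (array 75th percentile at 0) of the members of each complex that were measured on all 16 arrays, by group, with 1 point per array and a line at the group mean. The untreated control arrays spread widely for the accessory genes of complex I (3.15 to 3.61), and the fld untreated arrays lie close together (3.48 to 3.57).

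The first question was how LPS moved the chain in each genotype. Most members moved little. In fld cells 21 of 81 members passed the test (limma, adjusted p under 0.05), 4 higher and 17 lower, where 39.6% of all features passed, 21.6% higher and 18% lower. In control cells 8 members passed, 6 higher and 2 lower, where 29.4% of all features passed, 14.5% higher and 14.9% lower. The share lower in fld cells was thus near that of all features, and the members' share of rises was below it. The median log2 change of the members was -0.17 in fld and -0.03 in control cells, beside 0.06 and 0.03 for all features. The median absolute change was 0.191 and 0.148 for the members, against 0.374 and 0.285 over all features. For 55 members in fld cells and 63 in control cells the 95% interval of the change lay within 0.5 log2 units of no change, and for 78 and 80 within 1 unit. Of the 24 members that passed in either genotype, 5 passed in both and in the same direction, 16 in fld cells alone and 3 in control cells alone. The difference between the genotypes' responses was tested directly and 0 of 81 members passed, as did 0% of all features (2 members at an unadjusted p under 0.05). The 2 responses share no arrays, and a gene that passed in 1 genotype alone is not shown to differ between them.

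Arrays of the groups did not overlap for 5 members higher and 23 lower with LPS in fld cells (20.8% and 16.6% of all features, 37.5% in either direction), and for 8 higher and 4 lower in control cells (16.4% and 16.5%, 33% in either direction).

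The direction in control cells depended on how arrays were scaled. With quantile normalization 3 members were higher and 14 lower in control cells, and with normexp background correction and quantile normalization 2 higher and 29 lower, or 38.3% of members beside 28.7% of all features. Scaling by the 75th percentile of probes above background gave 5 and 5, and scaling by the array median 1 and 1. The authors' series table, itself a ratio to the array median, was rescaled here by its own 75th percentile. It then gave 8 higher and 2 lower. In fld cells all of these settings gave more falls than rises, from 15 lower and 4 higher (75th percentile of probes above background) to 36 lower and 2 higher (array median, which shifted the median of all features to -0.18 and of the members to -0.415). Single arrays counted too. Without untreated control array 4 the control count was 16 (4 higher, 12 lower), and without control LPS array 2 or 4 it was 5. Without both fld arrays numbered 4 the fld count was 11 (3 higher, 8 lower), and all 11 were among the 21. Without fld untreated array 2 or 4, or fld LPS array 4, it was 13, and without fld LPS array 2 it was 11. Leaving out both untreated control arrays that stood apart, 1 and 4, left 5 in control cells (4 higher, 1 lower).

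**Figure D2:**
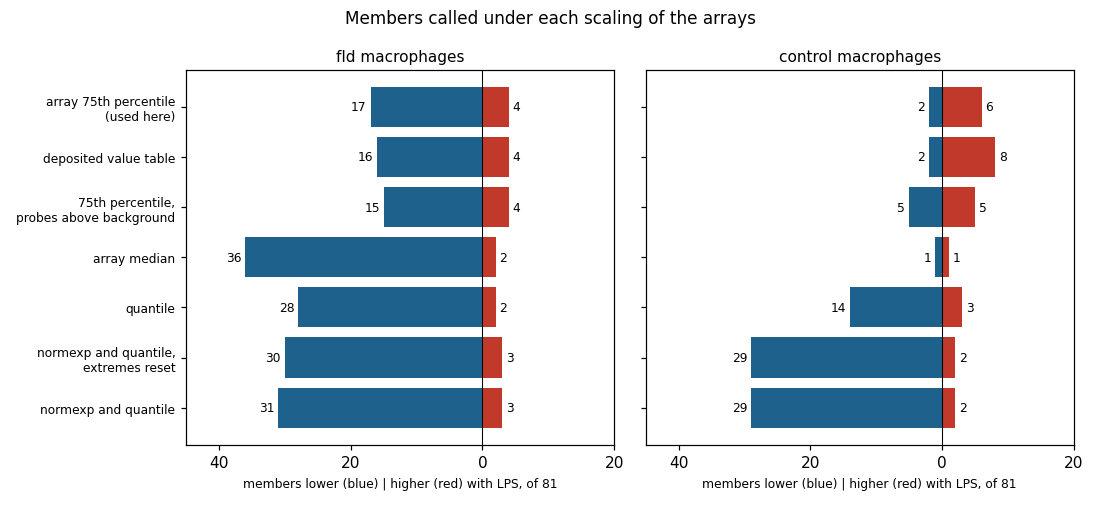
Number of the 81 tested members higher (red, to the right) and lower (blue, to the left) with LPS at a limma adjusted p under 0.05, for fld cells (left) and control cells (right) under 7 scalings of the arrays. Falls outnumber rises in fld cells under each scaling, while in control cells the split runs from 8 higher and 2 lower to 2 higher and 29 lower.

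**Figure D3:**
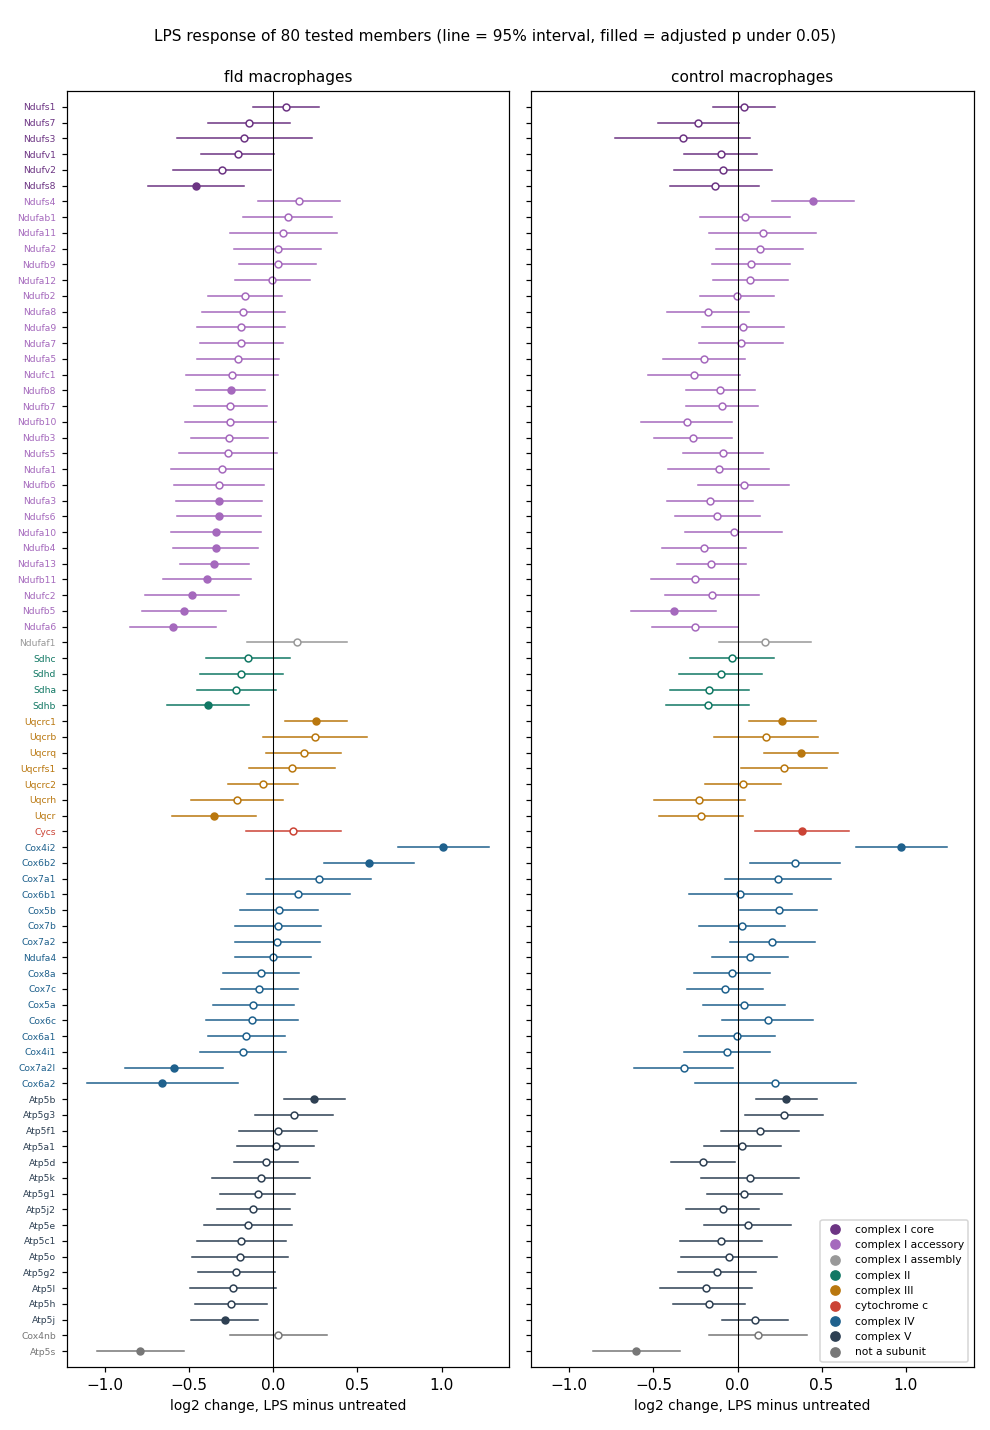
Log2 change with LPS for 80 of the 81 tested members, each with its 95% interval, in fld cells (left) and control cells (right), grouped and coloured by complex; filled points have an adjusted p under 0.05. Most of the accessory complex I genes lie below 0 in fld cells, and Cox4i2 lies farthest to the right in both panels.

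In complex I, which oxidises NADH, LPS was followed by modest falls, mostly of accessory subunits in fld cells. Of the 28 accessory genes 10 fell and 0 rose in fld cells, with a median log2 change of -0.26, and 1 fell and 1 rose in control cells, with a median of -0.11. Over all features 18% fell and 21.6% rose in fld cells, and 14.9% fell and 14.5% rose in control cells. Of the 10 that fell in fld cells, only Ndufa6, Ndufa13, Ndufb5 and Ndufc2 were still called without both fld arrays numbered 4. Under the other scalings 8 to 19 fell in fld cells with a median between -0.50 and -0.22, and 0 to 15 fell in control cells with a median between -0.24 and -0.08. For 14 of the 28 the fld arrays with LPS lay wholly below the untreated ones, a pattern met by 16.6% of all features, and for 2 of 28 the control arrays did (16.5% of all features). Ndufa6, an accessory subunit of the LYR family, had levels of 2.09, 1.79, 1.98 and 1.82 in fld cells with LPS, against 2.53, 2.57, 2.54 and 2.42 untreated. The groups did not overlap and the log2 change was -0.60 ± 0.12 (SE, n = 4 each, adjusted p = 0.0015). In control cells its levels were 2.16, 2.05, 2.20 and 2.01 with LPS against 2.58, 2.46, 2.42 and 1.98 untreated, overlapping only through untreated array 4 (change -0.25 ± 0.12, adjusted p = 0.13).

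Ndufb5, of the membrane arm, was the accessory gene that fell in both genotypes. It was at -0.20, -0.39, 0.02 and -0.27 in fld cells with LPS against 0.19, 0.46, 0.21 and 0.43 untreated (change -0.53 ± 0.12, adjusted p = 0.0029), and at -0.05, -0.37, 0.04 and -0.03 in control cells with LPS against 0.33, 0.30, 0.35 and 0.13 untreated (-0.38 ± 0.12, adjusted p = 0.024). Neither pair of groups overlapped. The call in control cells was lost without untreated array 1, 2 or 3 or LPS array 2 (changes of -0.37 to -0.29), with median scaling (-0.40, adjusted p = 0.0923), with no filter on dim probes (adjusted p = 0.0527), without untreated arrays 1 and 4 (-0.43, adjusted p = 0.0623) and with the replicate block of 8 levels (adjusted p = 0.0649). The call in fld cells held in all settings. Ndufc2, also of the membrane arm, was at 3.33, 3.33, 3.70 and 3.27 in fld cells with LPS against 3.93, 3.89, 3.90 and 3.84 untreated (-0.48 ± 0.13, adjusted p = 0.01). Its LPS array 3 stood above the other LPS arrays but still below each untreated one. Ndufa13, which passed in all settings as well and was singled out after its values were seen, changed by -0.35 ± 0.10 in fld cells (adjusted p = 0.01). The other 6 accessory genes that fell in fld cells, also named after their values were seen, depended more on single arrays. Of the 16 arrays left out in turn, 1 cost Ndufb11 its call, 5 cost Ndufb4, 6 cost Ndufs6, 9 cost Ndufa10, and 11 each cost Ndufa3 and Ndufb8. Ndufs4, an accessory subunit whose loss causes encephalopathy in mice, went the other way in control cells: 3.35, 3.19, 3.27 and 3.35 with LPS against 3.10, 2.91, 2.79 and 2.58 untreated, with no overlap (0.45 ± 0.11, adjusted p = 0.0083). It lost its call with median scaling alone (0.43, adjusted p = 0.0587), and in fld cells it changed by 0.15 ± 0.11 (adjusted p = 0.31).

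The 7 core subunits of complex I include those that hold the flavin and the iron-sulfur clusters. Their median log2 change was -0.17 in fld and -0.14 in control cells. Of these 7, only Ndufs8, a carrier of iron-sulfur clusters next to the quinone site, fell: it was at 0.26, 0.08, 0.17 and 0.00 in fld cells with LPS against 0.39, 0.62 and 0.75 on the 3 untreated arrays that measured it (-0.46 ± 0.13, adjusted p = 0.014). Without untreated array 4 the change was -0.38 (adjusted p = 0.063), and without both arrays numbered 4 the call was also lost. The other 6 did not pass in either genotype. Of them Ndufs7 was called lower in control cells under 3 of the 7 scalings (changes down to -0.38). In fld cells Ndufv1 was called lower under 2 (down to -0.46), and Ndufs7 and Ndufv2 under 1 each (-0.39 and -0.55). Ndufs1, the largest core subunit, changed by 0.08 ± 0.09 in fld and 0.04 ± 0.09 in control cells, and Ndufs3 by -0.17 ± 0.19 and -0.33 ± 0.19. Ndufs7 changed by -0.15 ± 0.11 and -0.23 ± 0.11. For Ndufv1, which binds NADH and flavin, the changes were -0.21 ± 0.10 and -0.10 ± 0.10, and for its partner Ndufv2 they were -0.30 ± 0.14 and -0.09 ± 0.14. The assembly factor Ndufaf1 changed by 0.14 ± 0.14 and 0.16 ± 0.13 and did not pass.

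Complex II, succinate dehydrogenase, is the enzyme shared by the respiratory chain and the citric acid cycle. Its iron-sulfur subunit Sdhb fell in fld cells, with levels of 2.87, 2.48, 2.63 and 2.48 with LPS against 2.92, 3.08, 3.12 and 2.89 untreated (-0.39 ± 0.11, adjusted p = 0.015). The groups did not overlap, although their nearest arrays were close, and the call held in all settings. In control cells Sdhb was at 2.71, 2.72, 3.02 and 2.89 with LPS against 2.98, 3.13, 3.10 and 2.84 untreated, with overlap (-0.18 ± 0.11, adjusted p = 0.27). The flavoprotein subunit Sdha changed by -0.22 ± 0.11 in fld and -0.17 ± 0.11 in control cells. The membrane anchors Sdhc and Sdhd changed by -0.15 ± 0.12 and -0.19 ± 0.12 in fld cells and by -0.03 ± 0.12 and -0.10 ± 0.12 in control cells. None of these 3 passed, although all 4 genes had negative changes in both genotypes. Sdhd was called lower in control cells under 2 of the 7 scalings (down to -0.29) and Sdha in fld cells under 1 (-0.46).

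Complex III, which passes electrons from ubiquinol to cytochrome c, held genes that moved both ways. Uqcrc1, a core protein of the matrix side, was at 4.77, 4.74, 4.74 and 4.64 in fld cells with LPS against 4.47, 4.46, 4.55 and 4.40 untreated (0.25 ± 0.09, adjusted p = 0.031), and at 4.63, 4.71, 4.88 and 4.67 in control cells with LPS against 4.55, 4.45 and 4.38 on the 3 untreated arrays that measured it (0.27 ± 0.09, adjusted p = 0.043). Groups did not overlap in either genotype, but the calls were fragile. The fld call was lost without untreated array 1, 2 or 4 or LPS array 1, 2 or 3 of that genotype (changes of 0.23 to 0.25). It was also lost without both fld arrays numbered 4 (0.26, adjusted p = 0.0657). The control call was lost when any 1 of 9 arrays was left out, namely untreated 2 and 4 and LPS 2, 3 and 4 of the control and untreated 1 and 2 and LPS 2 and 3 of the fld group (0.21 to 0.28). With quantile normalization or median scaling the call failed in both genotypes, and in control cells also under both normexp settings (change of 0.01). Uqcrq, a small subunit next to cytochrome b, rose in control cells, with 6.63, 6.77, 6.59 and 6.64 with LPS against 6.50, 6.39, 6.14 and 6.08 untreated (0.38 ± 0.10, adjusted p = 0.012). Under normexp correction its change was -0.01, so its direction rests on the scaling, and in fld cells it changed by 0.18 ± 0.10. Uqcr (current symbol Uqcr11), another small subunit, fell in fld cells by 0.35 ± 0.12 (adjusted p = 0.028), a call lost without untreated array 3 or 4 or LPS array 2 or 4 (changes of -0.34 to -0.31). It was also lost without both fld arrays numbered 4 (-0.30, adjusted p = 0.118). The Rieske protein Uqcrfs1 changed by 0.11 ± 0.12 and 0.28 ± 0.12 and the core protein Uqcrc2 by -0.06 ± 0.10 and 0.03 ± 0.11 in fld and control cells, and neither passed.

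Cytochrome c itself, encoded by Cycs, carries electrons between complexes III and IV and is also released in apoptosis. Its level was 4.81, 4.96, 4.99 and 5.05 in control cells with LPS against 4.85, 4.70, 4.33 and 4.39 untreated, which overlapped (0.38 ± 0.13, adjusted p = 0.04). The call was lost without untreated control array 3 or 4, control LPS array 2, 3 or 4 or fld LPS array 2 (changes of 0.31 to 0.38), and under 5 other scalings (lowest change 0.18). In fld cells it was 4.88, 4.93, 4.91 and 5.22 with LPS against 5.01, 4.62, 5.00 and 4.83 untreated (0.12 ± 0.13, adjusted p = 0.49). The dimmer kept probes of Cycs changed by -0.22 and -0.24 in fld and by 0.22 and 0.22 in control cells, and none of these passed. Its direction in fld cells thus depends on the probe. With the mean of the kept probes the control call was lost (0.27, adjusted p = 0.206).

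In complex IV, cytochrome c oxidase, Cox4i2 and Cox6b2 rose and Cox7a2l and Cox6a2 fell with LPS in fld cells, and Cox4i2 rose in control cells. Cox4i2, on chromosome 2, is the isoform of subunit 4 known for lung expression and for induction by low oxygen. It rose in both genotypes: -1.53, -1.86, -1.66 and -1.74 in fld cells with LPS against -2.74, -2.51, -2.62 and -2.97 untreated (1.01 ± 0.13, adjusted p = 3.3e-05), and -2.09, -2.22, -1.95 and -1.82 in control cells with LPS against -2.95, -3.16, -2.77 and -3.10 untreated (0.97 ± 0.13, adjusted p = 4.9e-05). Neither pair overlapped, the call held in all settings, and the smallest changes, 0.38 in fld and 0.33 in control cells, came with normexp correction without a reset of extreme backgrounds. The common isoform Cox4i1 changed by -0.18 ± 0.12 in fld and -0.06 ± 0.12 in control cells and did not pass, although in fld cells it was called lower under 4 of the 7 scalings (changes down to -0.42). Cox7a2l, a factor that joins complexes III and IV in supercomplexes, fell in fld cells, with 3.13, 3.09, 3.0 and 2.83 with LPS against 3.68, 3.70, 3.62 and 3.39 untreated (-0.59 ± 0.14, adjusted p = 0.0039), in all settings. In control cells it was at 3.11, 3.06, 3.06 and 2.95 with LPS against 3.69, 3.48, 3.35 and 2.94 untreated. There the groups overlapped only through untreated array 4 (-0.32 ± 0.14, adjusted p = 0.095), and without that array the change was -0.46 (adjusted p = 0.00841).

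Cox6b2, on chromosome 7, is an isoform of subunit 6b known from testis. It rose in fld cells, with -0.05, 0.22, 0.05 and 0.53 with LPS against -0.35, -0.40, -0.43 and -0.35 untreated (0.57 ± 0.13, adjusted p = 0.0026), in all settings, and changed by 0.34 ± 0.13 in control cells (adjusted p = 0.054), where the 4 LPS arrays also lay above the untreated ones. The common isoform Cox6b1 changed by 0.15 ± 0.14 and 0.02 ± 0.14 and did not pass. Cox6a2, the heart and muscle isoform of subunit 6a, fell in fld cells, with 1.51, 1.75, 1.47 and 1.37 with LPS against 2.43, 2.22 and 1.91 on the 3 untreated arrays that measured it (-0.66 ± 0.21, adjusted p = 0.024). The call was lost without untreated array 1 or 2 or LPS array 4 (-0.64 to -0.54), and in control cells, with 3 measured arrays a group, the change was 0.23 ± 0.22. Of 6 skeletal muscle markers Myh4 was above background on 0 arrays, and their summed linear level was 0.367 to 0.585 with LPS against 0.259 to 0.369 untreated in fld cells. Their part in the Cox6a2 result was not tested. The liver isoform Cox6a1 changed by -0.16 ± 0.11 in fld and -0.00 ± 0.11 in control cells. In the subunit 7 group Cox7a1, the muscle isoform, changed by 0.27 ± 0.15 and 0.24 ± 0.15, Cox7a2 by 0.02 ± 0.12 and 0.21 ± 0.12, and Cox7b by 0.03 ± 0.12 in both genotypes. Cox8a, the common subunit 8, changed by -0.07 ± 0.11 and -0.03 ± 0.11. Ndufa4, long counted with complex I and now placed in complex IV, changed by -0.00 ± 0.11 and 0.07 ± 0.11. None of these 6 passed, but in fld cells Cox6a1 was called lower under 4 of the 7 scalings (changes down to -0.40) and Cox8a under 2 (down to -0.22). In control cells Cox6a1 and Cox8a were called lower under 2 each (down to -0.32 and -0.30).

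**Figure D4:**
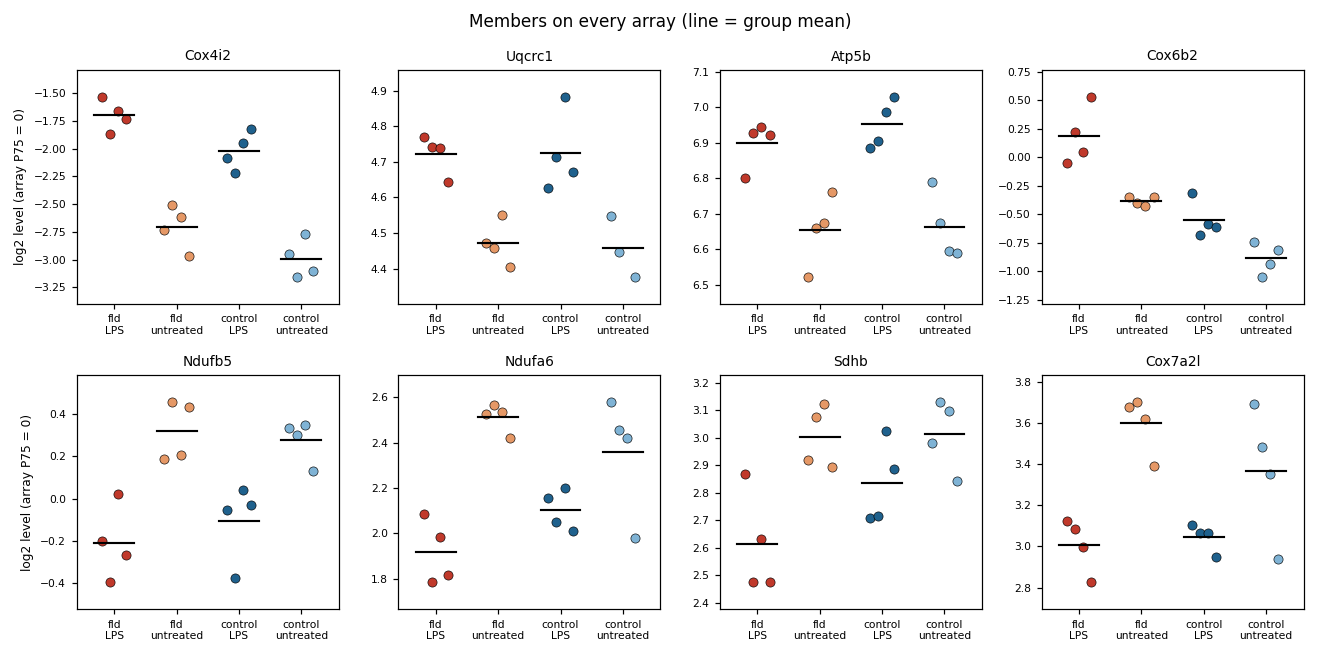
Log2 level (array 75th percentile at 0) of 8 members on each array, by group, with a line at the group mean. Cox4i2, Uqcrc1 and Atp5b are higher on each array with LPS in both genotypes, Cox6b2 is higher in fld than in control cells under either treatment, and Ndufb5, Ndufa6, Sdhb and Cox7a2l are lower on each fld array with LPS than on each untreated fld array.

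In complex V the catalytic subunit was the one called higher with LPS, and by its brightest probe alone. Atp5b, the beta subunit that forms ATP, was at 6.80, 6.93, 6.94 and 6.92 in fld cells with LPS against 6.52, 6.66, 6.67 and 6.76 untreated (0.24 ± 0.08, adjusted p = 0.032), and at 6.88, 6.91, 6.99 and 7.03 in control cells with LPS against 6.79, 6.67, 6.59 and 6.59 untreated (0.29 ± 0.08, adjusted p = 0.017). The groups did not overlap in either genotype. The control call was lost without LPS array 4 (0.26, adjusted p = 0.057), and the fld call without untreated array 1, 2 or 3 or LPS array 2, 3 or 4 (0.20 to 0.25). Under quantile, median or either normexp scaling both were lost, with changes as low as 0.0014. Its dimmer kept probes changed by 0.19 and 0.19 in fld and by 0.14 and 0.11 in control cells, and none of these passed. With the mean of the kept probes both calls were lost (0.21, adjusted p = 0.0662 in fld cells, and 0.18, adjusted p = 0.139 in control cells). Its partner in the catalytic head, Atp5a1, changed by 0.01 ± 0.11 in fld and 0.03 ± 0.11 in control cells, and the central stalk subunit Atp5c1 by -0.19 ± 0.12 and -0.10 ± 0.11. Neither passed, and Atp5a1 was lower in control cells under normexp correction (-0.27, adjusted p = 0.04). Atp5c1 was called lower under 3 of the 7 scalings in fld cells (down to -0.30) and 2 in control cells (down to -0.28). Atp5j, coupling factor 6 of the peripheral stalk, fell in fld cells, with 4.70, 4.54, 4.74 and 4.45 with LPS against 4.86, 4.90, 4.91 and 4.91 untreated (-0.29 ± 0.09, adjusted p = 0.023). That call was lost without untreated array 2 or LPS array 2 or 4 (-0.29 to -0.24). It was also lost without both fld arrays numbered 4 (-0.23, adjusted p = 0.106). Atp5g1, Atp5g2 and Atp5g3 encode the same rotor subunit c with different import sequences. Their changes were -0.09 ± 0.10, -0.22 ± 0.11 and 0.12 ± 0.11 in fld cells and 0.04 ± 0.10, -0.12 ± 0.11 and 0.27 ± 0.11 in control cells, and none passed. Atp5g2 was called lower in fld cells under 3 of the 7 scalings (down to -0.46), and Atp5g3 higher in control cells under 1 (0.30).

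Among the 3 members that encode no subunit, Atp5s moved most. It encodes a protein studied as coupling factor B of ATP synthase. Its levels were -1.78, -1.47, -1.40 and -1.83 in fld cells with LPS against -0.83, -0.64, -0.98 and -0.87 untreated (-0.79 ± 0.12, adjusted p = 0.00018), and -1.56, -1.30, -1.26 and -1.39 in control cells with LPS against -0.86, -0.72, -0.62 and -0.90 untreated (-0.60 ± 0.12, adjusted p = 0.0016). The groups were apart in both genotypes and the calls held in all settings. Cox4nb changed by 0.03 ± 0.14 and 0.12 ± 0.14 and did not pass.

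The second question was whether the genotypes differed. With LPS, 1 of 81 members passed, higher in fld cells, where 17% of all features passed, 16.1% higher and 0.916% lower. Without LPS 1 passed, also higher, where 5.08% of all features did, 4.87% higher and 0.212% lower. Arrays of the genotypes did not overlap for 1 member higher and 0 lower with LPS (17.6% and 2.55% of all features, 20.2% in either direction), and for 2 higher and 0 lower without (13.2% and 2.4%, 15.6% in either direction). The 2 without LPS were Cox6b2 and Atp5j, of which Atp5j did not pass the test (0.24 ± 0.09, adjusted p = 0.17). The member that passed was Cox6b2 both times. With LPS it was at -0.05, 0.22, 0.05 and 0.53 in fld cells against -0.31, -0.68, -0.58 and -0.61 in control cells (0.73 ± 0.13, adjusted p = 0.001), and without LPS at -0.35, -0.40, -0.43 and -0.35 in fld cells against -0.74, -1.05, -0.94 and -0.81 in control cells (0.50 ± 0.13, adjusted p = 0.031). No fld array overlapped a control array under either treatment. The call with LPS held in all settings. The call without LPS was lost when any 1 of fld arrays 1 to 4 or control arrays 2, 3 or 4 was left out (changes of 0.45 to 0.53, adjusted p up to 0.106). It was also lost with median scaling (0.32, adjusted p = 0.123), the 75th percentile of probes above background (0.48, adjusted p = 0.0681), both normexp settings (0.37 and 0.29), no filter on dim probes (adjusted p = 0.0545), or without control arrays 1 and 4 (0.61, adjusted p = 0.054). Leaving out control array 1 alone raised the count to 2 with Cox7a2 (0.42, adjusted p = 0.032). Without both fld arrays numbered 4 Cox6b2 was the 1 member called under each treatment. With LPS, leaving out fld array 1 raised the count to 2, as Sdha then passed too (-0.35, adjusted p = 0.035). Median scaling changed the picture with LPS: 47 members were then lower and 1 higher, but 48.4% of all features passed and the median of all features shifted to -0.37, with the members at -0.43.

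The other members lay close together between genotypes. The median log2 difference, fld minus control, was -0.02 with LPS and 0.12 without, beside 0.03 and 0.06 for all features, and the median absolute change was 0.0746 and 0.12 against 0.192 and 0.164. The 95% interval lay within 0.5 units for 71 members with LPS and 70 without, and within 1 unit for all 81 both times. Without LPS 66 of 81 members had a positive change, as did 10577 of 17466 features. The median of the members was 0.03 without untreated control array 4, the low array, and 0.19 without array 1, the high array. For the core subunits named above the changes with LPS ranged from -0.26 ± 0.14 (Ndufv2) to 0.17 ± 0.19 (Ndufs3) in complex I. In complex II Sdha changed by -0.26 ± 0.11, Sdhb by -0.22 ± 0.11, Sdhc by -0.23 ± 0.12 and Sdhd by -0.07 ± 0.12, none past the test. Uqcrc1 changed by -0.00 ± 0.09, Uqcrc2 by -0.01 ± 0.11, Uqcrfs1 by -0.02 ± 0.12, Cycs by 0.03 ± 0.13, Atp5a1 by -0.04 ± 0.11, Atp5b by -0.05 ± 0.08 and Atp5c1 by 0.02 ± 0.11.

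Where a gene had several probes they mostly moved alike. Of 22 members with several kept probes all probes had the same sign in 16 for LPS in fld cells, 20 for LPS in control cells, 15 for genotype with LPS and 18 for genotype without. No gene had probes called in opposite directions. The widest gap was in Ndufa3, whose brighter probe fell with LPS in fld cells (-0.32) while the other stood at 0.34. The second probe of Ndufb8 changed by -0.61 with LPS in fld cells and was lower in fld than in control cells with LPS (-0.59), where the brighter one stood at -0.25 and -0.09. Of the subunits encoded in mitochondrial DNA no name was matched, but 3 probes placed on chromosome M in the scanner files were bright (levels of 4.94 to 5.32 as group means) and passed in no comparison, with LPS changes of -0.13 to 0.01 in fld cells and 0.02 to 0.25 in control cells. Outside the rule were probes of 12 genes whose current symbols match it under older names in the files. Of these genes 10 were tested, Cox7b2 did not pass the filter on dim probes, and Sdha was already a member through other probes. Of the 10, Ndufv3, an accessory subunit of complex I, fell with LPS by 0.68 in fld and 0.44 in control cells, Ndufaf3 by 0.54 and 0.46, and Ndufaf5 by 0.50 and 0.44, the last 2 being assembly factors.

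Other mitochondrial genes were followed by list, and their counts are to be read against all features, of which 21.6% rose and 18% fell with LPS in fld cells and 14.5% rose and 14.9% fell in control cells. In fld cells the share of falls was above that of all features in each list below except the biogenesis regulators. Rises in fld cells were below or near it. In control cells falls were above it except among the regulators and the coenzyme Q list. Most lists are small, and none was tested as a set. Of 37 tested assembly factors outside the rule, 4 rose and 15 fell with LPS in fld cells and 5 rose and 8 fell in control cells. Sdhaf3, a complex II assembly factor, rose by 1.95 ± 0.21 and 1.15 ± 0.21, and Ttc19, a complex III factor, by 1.56 ± 0.14 and 1.47 ± 0.13. Nubpl, which brings iron-sulfur clusters to complex I, fell by 0.87 ± 0.12 and 0.65 ± 0.12. Sdhaf3 was also higher in fld than in control cells with LPS (1.56 ± 0.21, adjusted p = 0.00027). Of 28 genes of the citric acid cycle and pyruvate entry, 1 rose and 11 fell in fld cells and 3 rose and 8 fell in control cells. Idh2 and Idh1, isocitrate dehydrogenases of mitochondrion and cytosol, fell by 1.55 ± 0.22 and 1.54 ± 0.26 in fld cells and by 1.62 ± 0.22 and 1.69 ± 0.26 in control cells, and Dld, a shared dehydrogenase subunit, rose by 0.56 ± 0.11 and 0.76 ± 0.11.

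Of 16 regulators of mitochondrial biogenesis, 2 rose and 2 fell in fld cells and 3 rose and 1 fell in control cells. Gabpb1, of the GABP factor that binds promoters of the chain, rose by 0.65 ± 0.12 and 0.61 ± 0.12, Nrf1, a regulator of the same promoters, by 0.36 ± 0.09 and 0.26 ± 0.09, and the coactivator Ppargc1b fell by 0.59 ± 0.18 and 0.81 ± 0.18. Ppargc1a, its relative, was higher in fld than in control cells with LPS (1.77 ± 0.33, adjusted p = 0.0017). This difference and that of Sdhaf3 include both fld arrays numbered 4, and neither is given without them. Of 15 coenzyme Q and electron entry genes, 1 rose and 5 fell in fld cells and 0 rose and 2 fell in control cells, with Coq2, of ubiquinone synthesis, lower by 0.99 ± 0.12 and 0.59 ± 0.12 in LPS-treated cells. Of 14 carriers and the ATP synthase inhibitor, 3 rose and 6 fell in fld cells and 1 rose and 4 fell in control cells. The inhibitor itself, Atpif1, fell by 1.35 ± 0.14 and 1.23 ± 0.14. Of 11 genes of itaconate, uncoupling and mitochondrial antioxidants, 1 rose and 4 fell in fld cells and 3 rose and 3 fell in control cells, and the superoxide dismutase Sod2 rose by 1.18 ± 0.13 and 1.23 ± 0.13. Under the other scalings the counts of falls ranged from 14 to 19 in fld and 4 to 12 in control cells for the assembly factors, and from 11 to 13 in fld and 6 to 12 in control cells for the citric acid cycle list.

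Promoters were read for members that moved in more than 1 comparison. RefSeq promoter sequences (GRCm38.p6, from 250 bases before to 50 after the first start listed for each gene) were matched for 68 of the 83 members. Of the members that passed with LPS in both genotypes, or between genotypes under both treatments, 5 had an entry and are shown for that reason: Uqcrc1 and Atp5b rose with LPS in both genotypes, Ndufb5 and Atp5s fell in both, and Cox6b2 was higher in fld cells under both treatments. Motifs searched on both strands were the NRF1 core GCATGCG, the ETS core bound by GABP CCGGAAG, the SP1 core GGGCGG and the E-box CACGTG, and capitals mark a match. Uqcrc1 lies at chr9:108936398-108936697, plus strand, Atp5b at chr10:128083057-128083356, plus strand, Ndufb5 at chr3:32736813-32737112, plus strand, Atp5s at chr12:69724695-69724994, plus strand, and Cox6b2 at chr7:4753045-4753344, minus strand. Each is written 5′ to 3′ on the gene's strand.
Uqcrc1: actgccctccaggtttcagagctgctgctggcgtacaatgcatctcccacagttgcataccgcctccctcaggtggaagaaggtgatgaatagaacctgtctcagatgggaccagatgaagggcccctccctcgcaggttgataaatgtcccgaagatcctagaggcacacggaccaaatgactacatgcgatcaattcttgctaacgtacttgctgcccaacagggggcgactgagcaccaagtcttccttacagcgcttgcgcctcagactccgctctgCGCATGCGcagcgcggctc
Atp5b: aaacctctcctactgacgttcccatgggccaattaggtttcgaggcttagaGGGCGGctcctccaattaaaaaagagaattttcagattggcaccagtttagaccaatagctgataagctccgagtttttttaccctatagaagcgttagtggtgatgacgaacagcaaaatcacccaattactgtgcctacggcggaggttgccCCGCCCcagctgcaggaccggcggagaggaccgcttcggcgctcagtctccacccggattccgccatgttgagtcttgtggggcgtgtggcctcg
Ndufb5: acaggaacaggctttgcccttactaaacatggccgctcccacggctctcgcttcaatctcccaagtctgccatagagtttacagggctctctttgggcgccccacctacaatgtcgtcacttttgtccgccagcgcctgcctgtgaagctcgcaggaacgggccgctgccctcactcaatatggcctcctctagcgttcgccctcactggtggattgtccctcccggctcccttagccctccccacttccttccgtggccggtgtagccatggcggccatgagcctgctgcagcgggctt
Atp5s: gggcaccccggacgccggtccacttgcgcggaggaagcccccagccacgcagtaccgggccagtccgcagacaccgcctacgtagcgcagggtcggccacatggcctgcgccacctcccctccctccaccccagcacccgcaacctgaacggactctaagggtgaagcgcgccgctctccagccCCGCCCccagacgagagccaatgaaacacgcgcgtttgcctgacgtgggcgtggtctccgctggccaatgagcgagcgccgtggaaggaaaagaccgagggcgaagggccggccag
Cox6b2: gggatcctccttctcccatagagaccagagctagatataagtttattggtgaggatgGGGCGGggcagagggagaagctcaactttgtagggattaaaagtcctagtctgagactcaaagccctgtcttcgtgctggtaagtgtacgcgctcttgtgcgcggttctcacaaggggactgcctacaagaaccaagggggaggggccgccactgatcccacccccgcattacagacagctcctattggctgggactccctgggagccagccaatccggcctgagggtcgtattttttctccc
The Uqcrc1 promoter held the NRF1 core on both strands as 1 palindrome of 8 bases, Atp5b held 2 SP1 cores, Atp5s and Cox6b2 held 1 each, and Ndufb5 held none of these letters. Across the 68 members the NRF1 core was found in 11 (16.2%), beside 3.64% of 27025 genes in the table, and the ETS core in 16 (23.5%), beside 9.12%. The SP1 core was found in 29 members (42.6%), beside 35.9%, and the E-box in 6 (8.82%), beside 7.24%. The 22 tested members with an NRF1 or ETS core had a median LPS change of -0.19 in fld and -0.10 in control cells (4 lower and 1 higher in fld, 0 lower and 2 higher in control cells). The 45 tested members with neither had -0.19 and -0.09 (12 lower and 2 higher in fld, 2 lower and 2 higher in control cells). These matches are descriptions of letters and carry no test.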

How the data were processed

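RNA of adherent peritoneal cells from 4 groups was measured on 16 one-colour arrays, grouped by sample titles. The deposited scanner files hold a processed intensity per spot, made by the authors with Agilent Feature Extraction 9.5.1.1, with spatial and multiplicative detrending, surrogate values for dim spots and no further global background adjustment, per the file headers. The deposited series table holds a ratio, each array's processed intensity over its own median, as a comparison with the scanner values showed. Its scale and direction are therefore known, it carries no centring by gene, and every column has a median of 1. The log2 scale was computed here of the authors' processed intensity, minus each array's 75th percentile over spots that are not controls. Spots with an outlier flag (1.09% to 1.52% per array) were set to missing. A probe was kept when every array in 1 or more groups measured it well above background (25535 of 41174), and the brightest kept probe stood for a gene. Names were updated through RefSeq accessions and symbols (GRCm38.p6). Probe coordinates are those of the scanner files, and their build was not given in the sources used here.

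The tests came from limma 3.58.1 (R 4.3.3): all 16 arrays entered 1 model with a mean for each group, with two-sided tests and Benjamini-Hochberg adjustment over all 17466 features at 0.05. Fold changes are LPS minus untreated or fld minus control on the log2 scale. The number of arrays limits the precision (median half-width of the 95% interval over members 0.25). Nothing in the labels ties an array number to a mouse, so p-values measure the spread between these arrays, which may be technical. Alternatives were other scalings, background corrections, filters and probe summaries, each array left out, and blocks. Leaving out untreated control arrays 1 and 4 together was added after seeing the data. The members and lists were chosen with earlier results of these data known. The named genes were, per comparison and complex, up to 3 called rises and 3 called falls, plus the core subunits and isoform sets whatever their values, and up to 3 called genes per direction of the other lists. The values of 1 core subunit are not reported here. The fit was tested on simulated data.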

Additional observations from a re-analysis of the deposited data

Results flagged for a closer look

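A gap test for 1 value apart from the other 3 of its group (Dixon's test at 95%) was run on 118 groups, formed from the mean of each complex and the level of each member called, and marked 5. Chance marks about 1 in 20 such groups. The mean of complex II on untreated control array 3 was 2.661, against 2.5039 to 2.5295 on the other 3. Atp5b on fld LPS array 1 was at 6.8018, against 6.9218 to 6.9445. Atp5j on untreated control array 4 was at 4.4779, against 4.7081 to 4.736. Cycs on fld LPS array 4 was at 5.2155, against 4.8822 to 4.9286. Ndufc2 on fld LPS array 3 was at 3.6977, against 3.2717 to 3.3318. No member differed between the genotypes in its LPS response by the test of the difference.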

How the results depend on the processing

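Members called and median changes of the members kept their side or moved by under 1.5 times (counts) or under the spread of array means (medians) except as follows. With array-median scaling the median change was -0.415 for LPS in fld cells, -0.4263 for genotype with LPS, -0.05433 for genotype without LPS and -0.3423 for the difference of responses, and the calls were 38, 48, 0 and, for LPS in control cells, 2. For LPS in control cells the calls were 17 with quantile normalization, 31 with either normexp setting, and 5 without a filter on dim probes, with the mean of the kept probes, or without untreated control arrays 1 and 4. For LPS in fld cells they were 33 and 34 with normexp (with and without reset of extreme backgrounds) and 11 without both fld arrays numbered 4. For genotype with LPS they were 2 with the 75th percentile over probes above background, with either normexp setting and with the mean of kept probes. For genotype without LPS they were 0 with that percentile, with either normexp setting, without a filter and without untreated control arrays 1 and 4. Leaving out single arrays, calls ranged from 11 to 24 for LPS in fld cells, 5 to 16 for LPS in control cells, 1 to 2 for genotype with LPS, 0 to 2 for genotype without LPS and 0 to 0 for the difference. The medians ranged from -0.1995 to -0.1361, -0.1089 to 0.03301, -0.0517 to 0.01719, 0.02582 to 0.1853 and -0.169 to -0.03192. Single genes reversed in 6 cases: Cycs (-0.3656) and Ndufs1 (-0.4263) for genotype with LPS under median scaling, and Atp5a1 (-0.2723 and -0.2714) and Uqcrq (-0.01492 and -0.0149) for LPS in control cells under the normexp settings. The cause was not tested in any of these. Whether the array numbers pair the samples stayed unsettled. Deviations from the group mean were correlated between LPS and untreated arrays. In control cells the same number correlated best for arrays 1, 3 and 4 (0.161, 0.258 and 0.0891) but not for array 2 (0.0898, against 0.213 for another number). In fld cells it did so for array 4 alone (0.202), with -0.082, -0.0854 and -0.101 for arrays 1 to 3. With pairs between genotypes included, the range was -0.101 to 0.339. With the replicate block of 4 levels the calls were 24 for LPS in fld cells, 7 for LPS in control cells, 1 and 1 for genotype and 0 for the difference, and with the block of 8 levels 18, 6 and 0 for the LPS comparisons and the difference. The tested members were above background on all arrays, and 78 of 81 lay above the median level of all features (-0.48). Cox4i2 and Atp5s, which moved most in both genotypes, were dimmer, with group means of -3.00 to -1.70 and -1.62 to -0.78. The size of the Cox4i2 change depended on the background correction, with 0.38 in fld and 0.33 in control cells at the lowest.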
